A study of Homo sapiens with 6 samples.

Results

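The genes of the extrinsic, or death receptor, arm of apoptosis were examined in H3K27me3 and H3K4me3 ChIP-seq of G401 cells. They were picked by name as genes of this pathway, with earlier results of these data known. They are FAS and its ligand FASLG, the TRAIL receptors TNFRSF10A, TNFRSF10B, TNFRSF10C and TNFRSF10D, the adaptor FADD and the initiator caspases CASP8 and CASP10. This makes 9 of the 56638 genes in the table. G401 is an established malignant rhabdoid tumor cell line without SMARCB1, a core subunit of the SWI/SNF chromatin remodelling complex. The input libraries of both treatments held 0 counts for SMARCB1. All cells were grown in the same medium and received either DMSO or 3 µM MAK683, a compound that binds the EED subunit of PRC2 and inhibits it, for 3 days. Each treatment had 1 H3K27me3 library, 1 H3K4me3 library and 1 library of input (chromatin taken before the antibody step), so the treatments were compared without replicates and no p-value was computed.

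Death receptors are membrane proteins whose intracellular death domain binds FADD once a ligand has clustered them, and FADD in turn gathers CASP8 and CASP10, which cleave and activate one another and then the executioner caspases. H3K27me3 is laid down by PRC2 and marks silenced chromatin, often over whole genes, whereas H3K4me3 is concentrated at the promoters of active or poised genes, and a promoter with both is called bivalent. Silencing of death receptor and caspase genes is a known feature of many tumors.

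The libraries held between 13308099 and 21281877 counts, assigned to whole genes. To compare libraries, counts were divided by the library total and expressed as CPM, so that a value is a share of the library and not an absolute amount of the modification. A Drosophila spike-in was added in the experiment. The authors, who normalized ChIP-seq to it, reported a massive loss of H3K27me3 across the genome with MAK683. Shares of a library cannot show such a loss, so a higher CPM value is not a higher amount. The deposited values are whole numbers and no scaling factors are given in the sources used here, so they were taken as unscaled counts, and whether they carry the spike-in scaling was not tested. A gene that kept its share would have 41.0% of its H3K27me3 counts, 48.0% of its H3K4me3 counts and 53.7% of its input counts in MAK683. Relative to CPM, the counts as deposited place the MAK683 to DMSO ratio of every gene lower by about the log2 ratio of the totals, -0.53 for H3K27me3 and -0.12 for H3K4me3. The 3 counts taken as the limit of detection were between 0.141 and 0.225 CPM. All intervals below are exact 95% intervals that cover counting error only, and they do not cover differences between chromatin preparations. The cells were pooled, so a lower level in all cells and a loss in some of them cannot be told apart.

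FAS, the receptor of FAS ligand, was the single member with H3K27me3 above input. In DMSO 632 H3K27me3 counts stood beside 295 input counts, and in MAK683 316 stood beside 320. Its log2 H3K27me3 over input was 0.91 in DMSO (interval 0.71 to 1.12), above 87.4% of the 21261 genes with at least 100 input counts in the 2 inputs together, and 0.53 in MAK683 (0.31 to 0.76), above 83.1% of them. FAS thus held 1.88 times its input share in DMSO and 1.45 times after MAK683, and both intervals stayed above input although they overlapped each other slightly. The same gene was below input for H3K4me3 in DMSO, with 240 counts and a log2 value of -0.63 (-0.89 to -0.38). In MAK683 it had 339 H3K4me3 counts and a log2 value of 0.07 (-0.15 to 0.30), an interval that includes the input level.

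Promoter sequences are shown for the members at the ends of the range of H3K27me3 and H3K4me3: FAS with the highest H3K27me3, FASLG with the lowest H3K4me3 in DMSO and FADD with the highest H3K4me3. Each run is the 250 bases before the gene start in GENCODE release 44 on GRCh37, written 5′ to 3′ on the strand of the gene, here plus for all, with CG dinucleotides in capitals. The windows are chr10:90750164-90750413 for FAS, chr1:172627993-172628242 for FASLG and chr11:70049152-70049401 for FADD.
FAS: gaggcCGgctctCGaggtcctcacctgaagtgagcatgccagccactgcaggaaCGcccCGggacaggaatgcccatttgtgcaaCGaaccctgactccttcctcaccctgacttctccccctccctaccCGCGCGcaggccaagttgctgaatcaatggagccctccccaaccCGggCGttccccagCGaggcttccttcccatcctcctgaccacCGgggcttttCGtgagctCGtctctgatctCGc
FASLG: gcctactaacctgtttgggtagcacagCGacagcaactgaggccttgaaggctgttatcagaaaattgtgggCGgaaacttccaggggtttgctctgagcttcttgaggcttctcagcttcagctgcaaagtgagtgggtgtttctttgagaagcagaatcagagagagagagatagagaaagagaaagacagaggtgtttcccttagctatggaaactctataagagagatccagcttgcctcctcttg
FADD: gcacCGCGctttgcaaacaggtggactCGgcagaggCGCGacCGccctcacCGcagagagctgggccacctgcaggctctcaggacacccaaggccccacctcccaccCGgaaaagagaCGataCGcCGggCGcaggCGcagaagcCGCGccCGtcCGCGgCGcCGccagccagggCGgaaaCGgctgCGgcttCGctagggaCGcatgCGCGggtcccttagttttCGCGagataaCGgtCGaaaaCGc
The motif searched was the letters CG, which read the same on both strands. The FADD window held 32 CG, and 9.40% of 20111 promoters of protein-coding genes of the same length held as many or more. FAS held 15, near the median promoter at 14 (47.8% held as many), and FASLG held 2 (90.3% held as many). TNFRSF10B held 20, TNFRSF10A 17, TNFRSF10C 11, TNFRSF10D 10, CASP10 8 and CASP8 6. By H3K4me3 of the whole gene, TNFRSF10D stood second with 10 CG and TNFRSF10A near the end with 17. Whole-gene values depend on gene length and on which promoter reads were assigned, so they cannot show how CG and H3K4me3 relate in these windows. The FAS and TNFRSF10C windows each overlap an exon of a lncRNA without a gene symbol, and the TNFRSF10A window an exon of the lncRNA TNFRSF10A-DT. No counts were made on these windows themselves.

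The ligand FASLG, which is made mainly by activated T cells and natural killer cells, is a short gene with low counts (chr1:172628243-172636016, plus strand, 7.77 kb). Its H3K27me3 counts were 73 in DMSO and 53 in MAK683, its H3K4me3 counts 69 and 96, and its input counts 120 and 122. Both modifications were below input in DMSO, with log2 values of -0.89 (-1.34 to -0.47) for H3K27me3 and -1.12 (-1.59 to -0.70) for H3K4me3. In MAK683 the H3K4me3 value was -0.35 (-0.76 to 0.04), so that the interval reached the input level.

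The 4 TRAIL receptor genes lie beside each other on chromosome 8, and TNFRSF10A and TNFRSF10B encode the receptors with a working death domain (DR4 and DR5), while TNFRSF10C and TNFRSF10D encode decoys that bind TRAIL without passing on the death signal. TNFRSF10A (chr8:23047965-23082615, minus strand) had H3K27me3 counts of 330 (DMSO) and 209 (MAK683), H3K4me3 counts of 313 and 264 and input counts of 483 and 464. TNFRSF10B (chr8:22877646-22926544, minus strand) had 330 and 368 H3K27me3 counts, 1129 and 1062 H3K4me3 counts and 651 and 720 input counts. The H3K27me3 counts in DMSO were equal but the input counts were not. As log2 over input, TNFRSF10A was at -0.73 (-0.94 to -0.53) and TNFRSF10B lower, at -1.16 (-1.36 to -0.97). These receptors also differed in H3K4me3, where TNFRSF10A was below input in both treatments and TNFRSF10B above it.

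Of the decoy receptors, TNFRSF10C (chr8:22960434-22974958, plus strand) had 281 and 216 H3K27me3 counts, 347 and 336 H3K4me3 counts and 418 and 512 input counts. TNFRSF10D (chr8:22993101-23021540, minus strand) had 239 and 205 H3K27me3 counts, 1453 and 1206 H3K4me3 counts and 389 and 450 input counts. The decoys were also split by H3K4me3, with TNFRSF10D 2.95 times its input share in DMSO and 2.66 times in MAK683, and TNFRSF10C below input in both. All 4 receptors were below input for H3K27me3, from -1.16 (TNFRSF10B) to -0.73 (TNFRSF10A) in DMSO and from -0.69 (TNFRSF10C) to -0.42 (TNFRSF10B) in MAK683. Across the cluster, alternate genes had high and low H3K4me3: TNFRSF10B 0.46, TNFRSF10C -0.61, TNFRSF10D 1.56 and TNFRSF10A -0.96 in DMSO, as log2 over input in the order of their positions, and the signs were the same in MAK683. In the same order, 19.7%, 0%, 100% and 36.8% of the first 1 kb is free of other genes. Promoters may thus be unequally counted, which was not tested.

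FADD, the adaptor, is the shortest member (chr11:70049402-70053496, plus strand, 4.10 kb) and had the strongest H3K4me3. Its H3K4me3 counts were 1182 (DMSO) and 989 (MAK683), over 36 and 43 counts of input, and its H3K27me3 counts were 21 and 18. Its H3K4me3 was 25.4 times its input share in DMSO and 22.4 times in MAK683, higher than in 99.8% of the genes in DMSO. Because values cover whole genes, a promoter signal of a given size weighs more in a short gene such as FADD than in a long one, and the order of H3K4me3 levels among members of different length has this limit.

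The initiator caspases CASP8 and CASP10 are neighbours on chromosome 2, with CFLAR, their inhibitor, on the other side of CASP10. CASP8 (chr2:202098166-202226559, plus strand) had 383 and 287 H3K27me3 counts, 1368 and 1259 H3K4me3 counts and 685 and 715 input counts. CASP10 (chr2:202047595-202094151, plus strand) had 321 and 251 H3K27me3 counts, 380 and 397 H3K4me3 counts and 578 and 658 input counts. For H3K27me3 these caspases were alike, at -1.02 and -1.03 on the log2 scale over input in DMSO and -0.76 and -0.84 in MAK683, with overlapping intervals. For H3K4me3 they were apart, CASP8 being above input at 0.66 (0.53 to 0.79) in DMSO and CASP10 below it at -0.94 (-1.13 to -0.75).

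**Figure D1:**
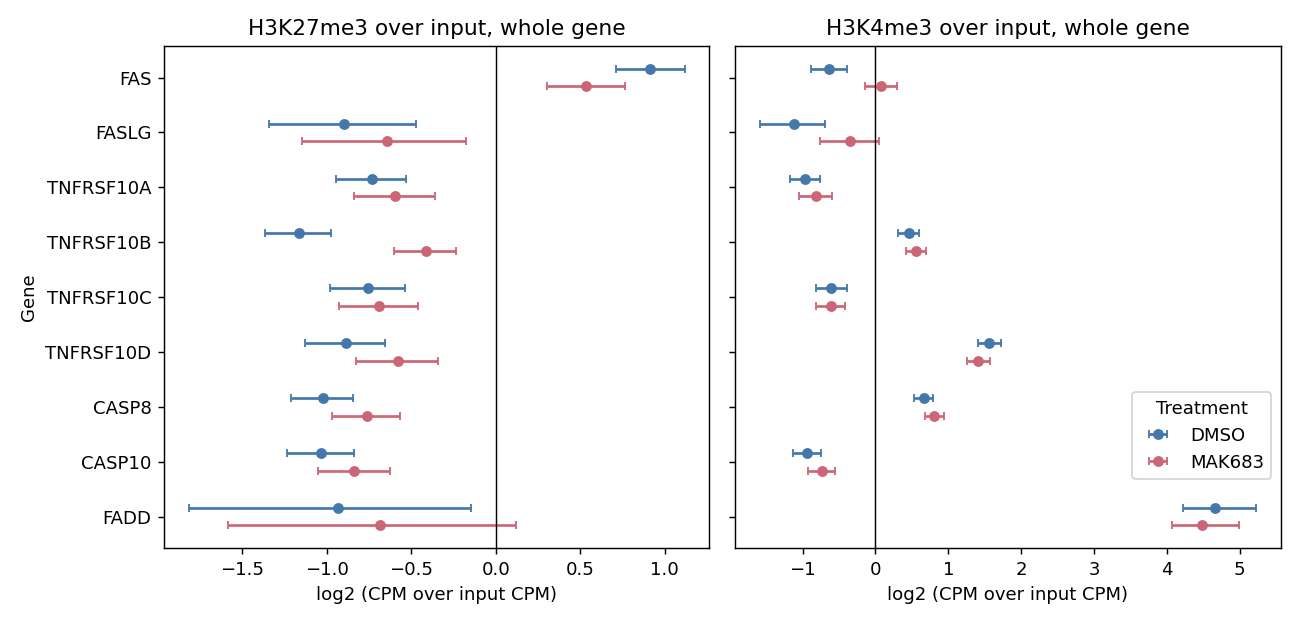
Log2 of H3K27me3 (left) and H3K4me3 (right) CPM over input CPM of the whole gene, for each member in DMSO (blue) and MAK683 (red), 1 library each. Points are the values, bars are exact 95% intervals for counting error and the vertical line is the input level; FAS is the only member right of the line for H3K27me3, and FADD is farthest right for H3K4me3.

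In order, FAS stood apart from every other member for H3K27me3 in both treatments, and the intervals of all neighbours among the remaining 8 members overlapped. For H3K4me3 the order was FADD, TNFRSF10D, then CASP8 and TNFRSF10B with overlapping intervals, and this was the same in both treatments. The other members followed, with TNFRSF10C, FAS, CASP10, TNFRSF10A and FASLG in DMSO and FAS, FASLG, TNFRSF10C, CASP10 and TNFRSF10A in MAK683, each overlapping the next. Of the 9 members, 1 was above input for H3K27me3 in each treatment, against 35.9% of the 29931 genes tested in DMSO and 36.9% in MAK683. For H3K4me3, 4 were above input in DMSO and 5 in MAK683, against 44.2% and 46.6% of 30028 genes. A gene was tested when it had at least 10 counts in 1 of the 2 libraries of a modification, and all 9 members passed. The median log2 over input of the members was -0.89 for H3K27me3 and -0.61 for H3K4me3 in DMSO, beside -0.56 and -0.21 over all genes tested.

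FAS was also the member that came to be above input for both modifications. In DMSO 0 of 9 members were above input for both, and in MAK683 FAS was, with an H3K4me3 interval that includes input. Among the 21261 genes with at least 100 input counts, 2.89% were above input for both modifications in DMSO and 4.62% in MAK683. The members with H3K4me3 above input in DMSO, namely FADD, TNFRSF10D, CASP8 and TNFRSF10B, were all below input for H3K27me3. TNFRSF10A, TNFRSF10C, CASP10 and FASLG were below input for both modifications in both treatments.

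**Figure D2:**
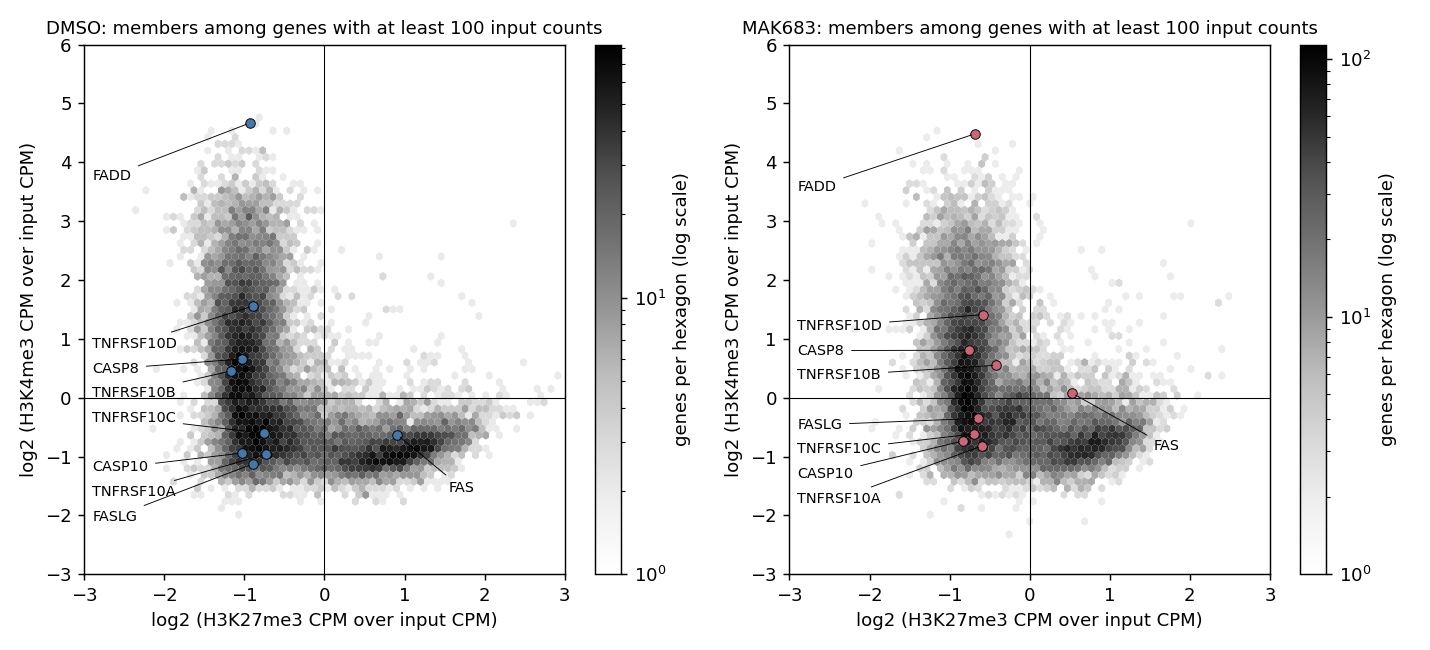
Log2 H3K4me3 over input (vertical) against log2 H3K27me3 over input (horizontal) in DMSO (left) and MAK683 (right), with genes of at least 100 input counts in grey hexagons (log scale of genes per hexagon) and the 9 members as points. FADD, with 79 input counts, is drawn although it has fewer than the grey genes; FAS lies in the lower right, high for H3K27me3 and low for H3K4me3, in DMSO, and close to the input level of H3K4me3 in MAK683.

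The 5 protein-coding genes most like FAS in these 4 values (H3K27me3 and H3K4me3 over input in each treatment) were SEMA6A, GNAI1, MBP, PLCXD2 and ZSWIM6, out of 13980 candidates and by Euclidean distances from 0.13 to 0.24 on the log2 scale. For SEMA6A, the nearest, H3K27me3 counts were 1876 (DMSO) and 1079 (MAK683) and H3K4me3 counts 658 and 1086. The nearest other member to FAS was TNFRSF10C, at a distance of 2.18, while the closest members to each other were TNFRSF10A and CASP10 at 0.39.

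Turning to the change with MAK683, no member reached a 2-fold difference in CPM for either modification. Over all genes tested, 3.27% passed 2-fold downward and 3.87% upward for H3K27me3, and 1.84% and 4.1% for H3K4me3. The following values are therefore shares of counts in MAK683, read against the share of the library.

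For H3K27me3, FAS had 33.3% of its counts in MAK683 (30.3 to 36.4), below the library share of 41.0%, and was the only member below it, beside 13.6% of all genes tested. Its ratio in CPM was -0.47 on the log2 scale, a share of the library 1.39-fold lower in MAK683. This ratio was lower than for all but 9.93% of genes, and the counts as deposited gave -0.998. After subtraction of the input ratio the value was -0.38. TNFRSF10B, with 52.7% (48.9 to 56.5), and TNFRSF10D, with 46.2% (41.5 to 50.9), were above the library share, beside 22.7% of all genes tested. The TNFRSF10B share of the library was 1.60-fold higher in MAK683 (log2 ratio 0.68 in CPM), and its counts as deposited were higher too, with a log2 ratio of 0.16. The TNFRSF10D log2 ratio of 0.30 in CPM was turned to -0.22 in the counts as deposited. These receptors are a working TRAIL receptor and a decoy. For the other 6 members the interval included the library share. Among the 18107 genes with summed counts in the range of the members, a background chosen after seeing the data, 8.39% lay below the library share and 22.0% above it. In CPM, 2 of 9 members (FAS and TNFRSF10A) had a lower H3K27me3 value in MAK683, beside 42.6% of all genes tested, whereas in the counts as deposited 8 of 9 were lower, beside 85.3% of all genes tested, and TNFRSF10B was the exception. The TNFRSF10A log2 ratio of -0.13 in CPM was turned to 0.14 after subtraction of the input ratio. The median log2 ratio of the members was 0.15, beside 0.08 over all genes tested. Both TNFRSF10B values over input were below 0, so the higher share was a difference between levels under input.

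For H3K4me3, FAS had 58.5% of its counts in MAK683 (54.4 to 62.6) and FASLG 58.2% (50.3 to 65.8), both above the library share of 48.0%, beside 19.5% of all genes tested. The log2 ratios in CPM were 0.61 and 0.59, and the FAS level was 1.53-fold higher. FAS and FASLG were thus the members with the largest H3K4me3 ratios, and their values exceeded those of 90.6% and 90.1% of genes. Both FASLG values over input, -1.12 in DMSO and -0.35 in MAK683, were below 0, so its higher share was a difference between levels under input. At a confidence of 99% the FASLG interval, 47.9 to 68.0, included the library share by a small margin, and that of FAS, 53.1 to 63.8, did not. TNFRSF10D, with 45.4% (43.5 to 47.3), and FADD, with 45.6% (43.4 to 47.7), were below the library share, beside 21.3% of all genes tested, with log2 ratios of -0.15 and -0.14. Both had high H3K4me3, and the many counts gave narrow intervals around small ratios. In the members' range of counts, 15545 genes, 27.5% lay below the library share and 20.3% above it. For the other 5 members the interval included the library share, and the median log2 ratio of the members was 0.03, beside 0.0032 over all genes tested. In CPM, 4 of 9 members had a lower H3K4me3 value in MAK683, beside 49.6% of all genes tested, and 6 of 9 did in the counts as deposited, beside 61.9%.

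In the input, 8 of 9 members had an interval that included the library share of 53.7%. TNFRSF10A, with 49.0% (45.8 to 52.2), was below it, beside 7.78% of all genes tested, and 0 members were above it, beside 9.44%. The TNFRSF10A input log2 ratio was -0.27.

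**Figure D3:**
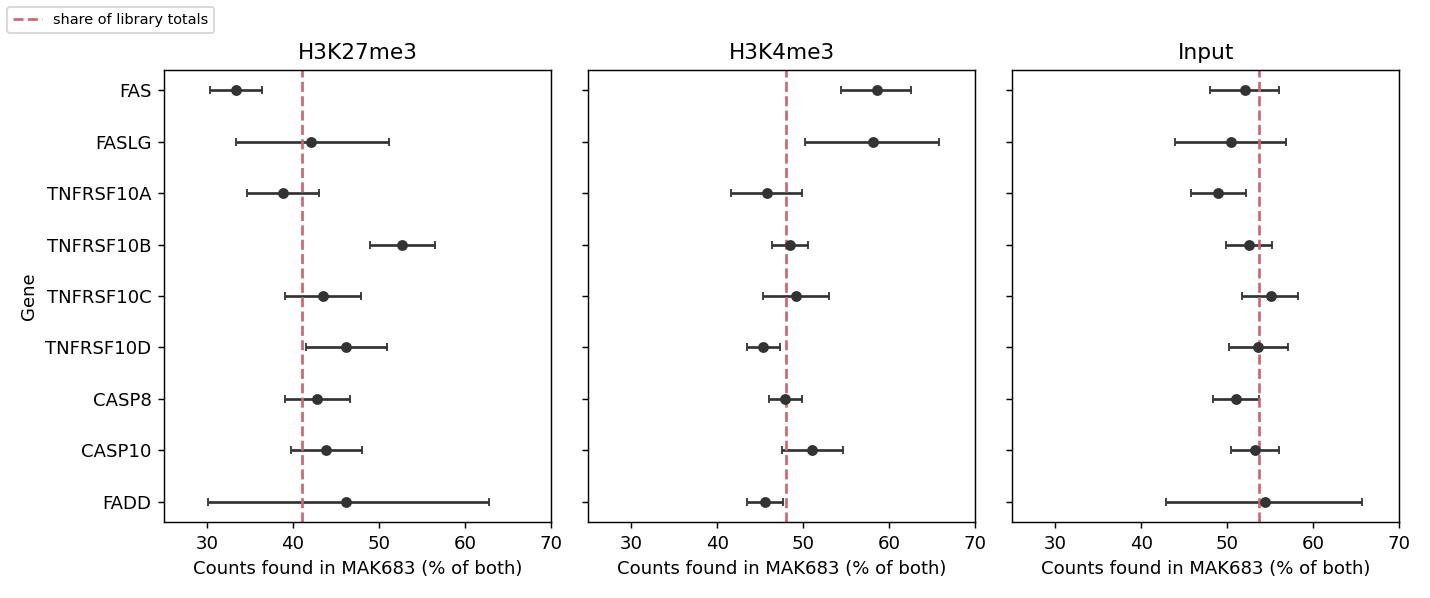
Percent of the counts of both treatments found in MAK683, for each member in H3K27me3 (left), H3K4me3 (middle) and input (right), with exact 95% intervals. The dashed line is the share of the library totals (41.0%, 48.0% and 53.7%); FAS lies left of the line for H3K27me3 and right of it for H3K4me3, TNFRSF10B right of it for H3K27me3 and FASLG right of it for H3K4me3.

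The genes beside the members were read in the same way. FAS (chr10:90750414-90775542, plus strand, 25.1 kb) lies between STAMBPL1 and LIPA, and its start overlaps ACTA2, the gene of smooth muscle actin, which runs on the opposite strand. For STAMBPL1, a deubiquitinase gene, H3K27me3 counts were 1501 (DMSO) and 1008 (MAK683), and the log2 values over input 1.22 and 1.005. Its share in MAK683, 40.2% (38.2 to 42.1), included the library share. ACTA2 had 361 and 154 H3K27me3 counts, at 0.92 and 0.03 on the log2 scale over input, and its share of 29.9% (26.0 to 34.1) was below the library share as in FAS. LIPA was at 0.24 and 0.25. For H3K4me3, STAMBPL1 had 539 counts in DMSO and 846 in MAK683, a share of 61.1% (58.5 to 63.7) above the library share, and ACTA2 had 151 and 188 counts, a share of 55.5% (50.0 to 60.8) that was above it too.

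At the TRAIL receptor cluster, the outer neighbour PEBP4 was above input for H3K27me3 (0.79 in DMSO and 0.56 in MAK683) while TNFRSF10B, 20.1 kb from it, was the lowest member in DMSO. At the caspase cluster, CFLAR and TRAK2 were below input for H3K27me3 as were CASP8 and CASP10. H3K4me3 counts of CFLAR were 2112 (DMSO) and 1770 (MAK683), at 1.77 and 1.46 over input. FADD was flanked by ANO1, at -0.11 for H3K27me3 in DMSO, and PPFIA1, at -0.97.

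**Figure D4:**
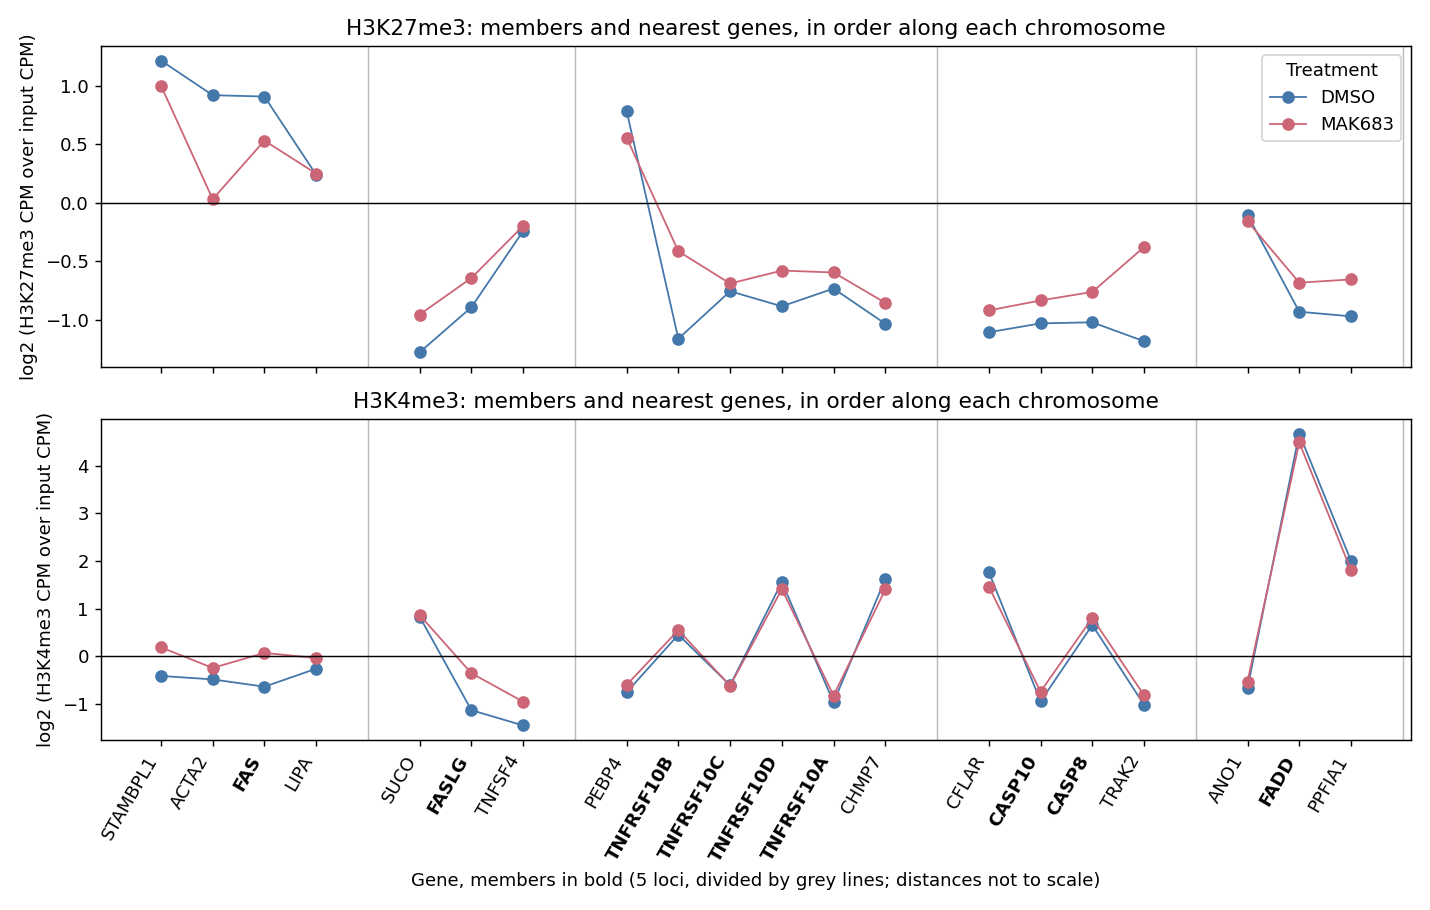
Log2 H3K27me3 (top) and H3K4me3 (bottom) over input for the members (bold) and the nearest genes, in order along each of 5 loci and with distances not to scale, in DMSO (blue) and MAK683 (red). The genes at the FAS locus are above input for H3K27me3 in both treatments, though ACTA2 in MAK683 is close to it (0.03). The TRAIL receptors, the caspases and FADD are below input. H3K4me3 counted over whole genes alternates along the TRAIL receptor cluster, where overlapping genes may leave promoters unequally counted.

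Reads that fall where genes overlap may be left unassigned in gene counts, and the annotation used for counting is not named in the sources used here. In GENCODE release 44, 85.7% of FAS is free of other genes but 0% of its first 1 kb is, since ACTA2 and a lncRNA cover it, so the FAS counts may hold little of its promoter. Of the first 1 kb, 0% was free in TNFRSF10C as well, 36.8% in TNFRSF10A and 19.7% in TNFRSF10B. TNFRSF10C is free over 13.1% of its length and had 64.0 input counts per kb of its whole length, above the 5% to 95% range of 15.7 to 34.1 per unshared kb over 12648 protein-coding genes, so the span counted for it may differ from this annotation, which was not tested. CASP8 is free over 42.7% of its length and had 10.9 input counts per kb of its whole length. Its counts may thus cover only part of the span given. Per unshared kb, the members other than TNFRSF10C had between 25.6 and 31.1 input counts, near the median of 27.6.

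Other genes of the apoptosis pathways, 50 in all, were examined by their roles. Of these, 47 were tested for H3K27me3 and 48 for H3K4me3. In DMSO 12 were above input for H3K27me3, beside 35.9% of all genes tested, and 33 for H3K4me3, beside 44.2%. No gene of the list was 2-fold lower for H3K27me3 and 1 was 2-fold higher, CYCS (cytochrome c), with 29 counts in DMSO and 44 in MAK683. Its log2 values over input, -1.77 in DMSO and -0.36 in MAK683, were both below 0, so this was a difference between levels under input. For H3K4me3, 0 genes were 2-fold changed in either direction. For H3K27me3 the share interval was below the library share for 8 genes and above it for 15, beside 13.6% and 22.7% of all genes tested. For H3K4me3 it was below for 18 and above for 3, beside 21.3% and 19.5%. The median H3K27me3 log2 over input of the list was -0.83 in DMSO, beside -0.89 for the 9 members and -0.56 for all genes tested.

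Among the other receptors, 3 of 6 were above input for H3K27me3 in DMSO, beside 35.9% of all genes tested, a share that also applies to the groups below. TNFRSF21 (death receptor 6) had H3K27me3 counts of 2515 (DMSO) and 1444 (MAK683), with a share of 36.5% (35.0 to 38.0) below the library share, and H3K4me3 counts of 976 and 1457, with a share of 59.9% (57.9 to 61.8) above the library share. Its intervals thus lay on the same sides of the library shares as those of FAS. NGFR, the low-affinity neurotrophin receptor, had 480 and 217 H3K27me3 counts and was above input for both modifications, at 1.15 for H3K27me3 and 2.22 for H3K4me3 in DMSO. TNFRSF1A, the main TNF receptor, and TNFRSF1B were below input for H3K27me3 at -0.88 and -0.81.

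Of the ligands and soluble decoys, 3 of 5 tested genes were above input for H3K27me3 in DMSO. TNFSF10, which encodes TRAIL, was at 0.82 with 458 counts in DMSO and 270 in MAK683, and TNFSF15 at 1.57. LTA (-1.27) was below input, and TNF (-0.50, interval -1.38 to 0.32) had an interval that included it. Of 6 adaptors and kinases, CRADD was above input (0.90), TRADD, the adaptor of the main TNF receptor, followed at -0.54, and RIPK1 (-0.93) and TRAF2 (-0.93) were lowest. Of 5 inhibitors 0 were above input, with CFLAR (-1.11) and XIAP (-1.04) lowest and BIRC5 (-0.89) and BIRC3 (-0.79) highest.

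Of the other caspases, 3 of 9 were above input for H3K27me3, with CASP14, a caspase of the differentiating epidermis, at 1.72. CASP1, an inflammatory caspase, was at 0.19 (-0.10 to 0.48). Its interval and that of the remaining gene above input included the input level. CASP6 (-1.40) and CASP2 (-1.12) were the lowest. In the BCL2 family and mitochondrial arm, 2 of 16 tested genes were above input, PMAIP1 (NOXA) at 1.54 and BIK at 0.18. The BIK interval (-0.07 to 0.44) included input. CYCS (-1.77) and MCL1 (-1.16) were lowest. Input counts of PMAIP1 were 54 (DMSO) and 27 (MAK683), an input log2 ratio of -1.18 that its values over input also carry. For H3K4me3, 16 of 17 tested genes of this group were above input in DMSO, beside 4 of 9 members and 44.2% of all genes tested.

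**Figure D5:**
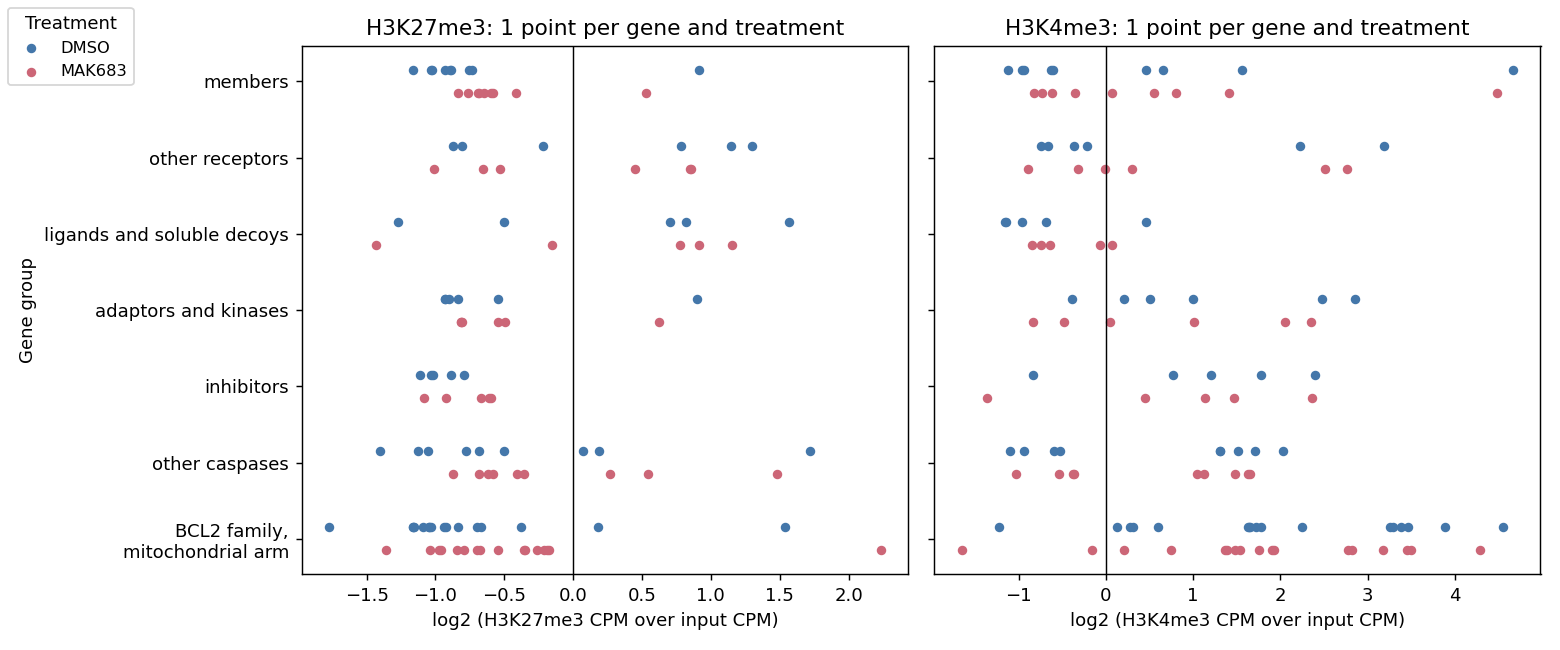
Log2 H3K27me3 (left) and H3K4me3 (right) over input, 1 point per gene, for the 9 members and 6 groups of other apoptosis genes in DMSO (blue) and MAK683 (red). The members lie left of the input line for H3K27me3 except FAS, and the genes of the BCL2 family and mitochondrial arm lie mostly right of the line for H3K4me3.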

How the data were processed

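The authors trimmed reads with Trim Galore 0.4.4, aligned them to hg19 with Bowtie2, treated ChIP-seq reads with Picard 2.23.6 and counted them per gene with featureCounts (deepTools 3.4.3 is also named in the submitters' processing notes), and deposited whole-number counts of 56638 genes in 6 libraries, which were taken as not normalized. The counting annotation is not given in the sources used here. Library totals were between 13308099 and 21281877 counts. Log2 ratios of CPM used a pseudocount of 0.05 CPM and genes with at least 10 counts in 1 of 2 libraries. Percent shares of counts and values over input have exact Clopper-Pearson 95% intervals (Python 3.11.15, numpy 2.4.6, pandas 2.3.3, scipy 1.17.1, matplotlib 3.10.9). There was 1 library per treatment and antibody, so no test was run. Of the genes, 33514 (59.2%) were matched by symbol to GENCODE release 44 on GRCh37, the build of hg19, which gave coordinates and promoters. The members, the list of 50 other apoptosis genes and the rules for naming were chosen with earlier results of these data known. From that list, the text could name genes at least 2-fold changed and the 2 highest and 2 lowest of each group by H3K27me3 over input in DMSO. The named neighbours were overlapping genes and the nearest protein-coding genes with at least 100 counts in the 2 inputs together. The calculations were tested on simulated counts. RNA-seq and ATAC-seq were not analysed here.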

Additional observations from a re-analysis of the deposited data

How the results depend on the processing

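No paired analysis was possible because each treatment and antibody had 1 library, and for the same reason no library could be left out. With the counts as deposited, the median H3K27me3 log2 ratio of the members was -0.38 instead of 0.15, and TNFRSF10D turned from 0.30 to -0.22, by the ratio of the library totals. When H3K27me3 over input was divided by the median gene, the median of the members in DMSO was -0.34 instead of -0.89. At 99% confidence, 1 member instead of 2 was above the library share for H3K4me3, FASLG being the one lost. Genes at least 2-fold lower for H3K27me3 numbered 980, but 2972 with the counts as deposited, 1816 after subtraction of the input ratio, 42 with a pseudocount of 1 CPM, 41 with a mean of at least 50 counts, 2583 without a filter and 131 among autosomal protein-coding genes. Genes at least 2-fold higher for H3K4me3 numbered 1231, but 112 with a pseudocount of 1 CPM, 161 with a mean of at least 50 counts, 2931 without a filter and 242 among autosomal protein-coding genes. Of 126 values of single members under the alternatives, 13 had the other sign than the reported value, all of them log2 ratios between treatments. With the counts as deposited these were 6 for H3K27me3 and 2 for H3K4me3, after subtraction of the input ratio 1 and 3, and with median-of-ratios scaling 1 for H3K27me3 (FASLG). TNFRSF10D was the only one of them whose interval for the reported value excluded 0. Depth limited FADD and FASLG most, with H3K27me3 counts of 21 and 18 for FADD and of 73 and 53 for FASLG.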
